A study of Mus musculus with 8 samples.

Results

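Secreted acute-phase and reactive genes were followed across 8 mouse RNA-seq libraries: Lcn2, C3, Serpina3n, Cp, Ptx3, Saa3 and Hp, 7 of the 29713 genes measured. They were chosen by symbol after Lcn2, C3 and Serpina3n had been seen to differ between the preparations of these same data. Their levels are therefore given as a description, and nothing is tested on them. The neural libraries were of strain C57: those of the brain regions cerebellum, cortex and hippocampus, and those labelled glia and neuron, with brain as their source. ICR MEF and OG2 MEF were fibroblasts of day 13.5 embryos, of strain ICR and strain OG2. R1 ESCs carried the label of a stem cell line with inner cell mass as its source and 129X1 x 129S1 as its strain. No treatment is named in the labels. The sources used here do not give age, sex, the number of animals pooled or the way glia and neurons were prepared.

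Acute-phase proteins are secreted into blood or tissue fluid when injury or infection raises cytokines such as interleukin 6, interleukin 1 and tumour necrosis factor. Liver makes most of the circulating pool, and glia, fibroblasts, epithelium and myeloid cells make several of them locally, under STAT3, NF-kB and C/EBP factors. In brain, Lcn2, Serpina3n and C3 are widely used as markers of reactive astrocytes, Cp is the copper-dependent oxidase that readies iron for transferrin, and Ptx3 binds microbes and complement and cross-links hyaluronan matrix.

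Promoters of the members that held a C/EBP core are shown, since these genes were highest in different libraries. RefSeq promoters (GRCm38.p6) were at hand for 6 of the 7 genes, and the 250 bases before each start were searched on both strands for a C/EBP core (TTGCNNAA), a STAT site (TTCNNNGAA) and the NF-kB consensus. The C/EBP core was found in Lcn2, C3, Ptx3, Saa3 and the second of the Cp promoters, and 9.56% of all 32851 promoters of that length held it. No member held the STAT site, against 7.02% of promoters, or the NF-kB consensus, against 7.25%. Sequences read 5′ to 3′ on the strand of the gene, capitals mark the bases of the match, and for Lcn2 and Cp the match lies in an annotated exon, so 30 bases are given.
Lcn2, chr2:32387937-32387966, minus strand: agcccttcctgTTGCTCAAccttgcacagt
C3, chr17:57228137-57228386, minus strand: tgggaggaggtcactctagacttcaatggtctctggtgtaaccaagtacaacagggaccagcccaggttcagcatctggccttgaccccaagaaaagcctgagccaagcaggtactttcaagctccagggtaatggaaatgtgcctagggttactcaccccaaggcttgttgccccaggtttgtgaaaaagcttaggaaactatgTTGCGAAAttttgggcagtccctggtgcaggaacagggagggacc
Ptx3, chr3:66219637-66219886, plus strand: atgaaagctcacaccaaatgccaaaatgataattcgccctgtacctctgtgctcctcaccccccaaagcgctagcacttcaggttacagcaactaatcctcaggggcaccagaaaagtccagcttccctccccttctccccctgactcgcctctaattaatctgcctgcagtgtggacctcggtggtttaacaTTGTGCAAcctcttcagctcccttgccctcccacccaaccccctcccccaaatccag
Saa3, chr7:46715701-46715926, minus strand: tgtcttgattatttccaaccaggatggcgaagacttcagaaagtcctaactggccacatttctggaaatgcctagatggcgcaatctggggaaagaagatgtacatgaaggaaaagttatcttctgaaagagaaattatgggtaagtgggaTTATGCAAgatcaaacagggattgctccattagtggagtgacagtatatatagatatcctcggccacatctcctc
Cp, chr3:19957168-19957197, plus strand: attagttactcTTTTGCAAcattaaattgt
The match lay 45 to 38 bases before the start in C3, 57 to 50 in Ptx3, 70 to 63 in Cp, 99 to 92 in Saa3 and 216 to 209 in Lcn2. The same letters thus stood before genes highest in neuron (Lcn2, Saa3), in the pair of neuron and glia, not apart by counting error (C3), in glia (Cp) and in ICR MEF (Ptx3). A match is a run of letters only, and binding was not measured.

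Each group was 1 library, so there is no spread between replicates, and every interval below is an exact 95% counting interval that covers counting error only. Levels are TPM, a length-scaled share of the transcripts in a library, and total expected counts ran from 2147004 in R1 ESCs to 5864673 in glia. A gene was called different between groups when all libraries on its high side stood at 10 TPM or above and cleared the top library of the low side by 4-fold after 1 was added to each TPM. A library at 0 counts was set to 3 counts, which makes the fold a lower bound at the measured level of the higher library. Defining markers followed most labels. All 10 neuron markers were at 10 TPM or above in neuron and 4 of 10 in glia (Stmn2 288 and Map2 118 TPM among them). Of the 10 astrocyte markers, 9 reached it in glia (Gfap 1492 TPM, Gjb6 0) and 4 in neuron. All 10 of either list also reached it in each brain region, so this floor does not set neuron or glia apart from the regions. Col1a1 was at 3058 and 2853 TPM in ICR MEF and OG2 MEF. R1 ESCs held Pou5f1 at 20.2 and Nanog at 10.3 TPM, while Zfp42, Utf1 and Lin28a were at 0 and the epithelial genes Krt14 and Wfdc2 at 142 and 306 TPM. That library is therefore called by its label only. In bulk RNA, fewer cells of a type and less RNA per cell cannot be told apart.

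**Figure D1:**
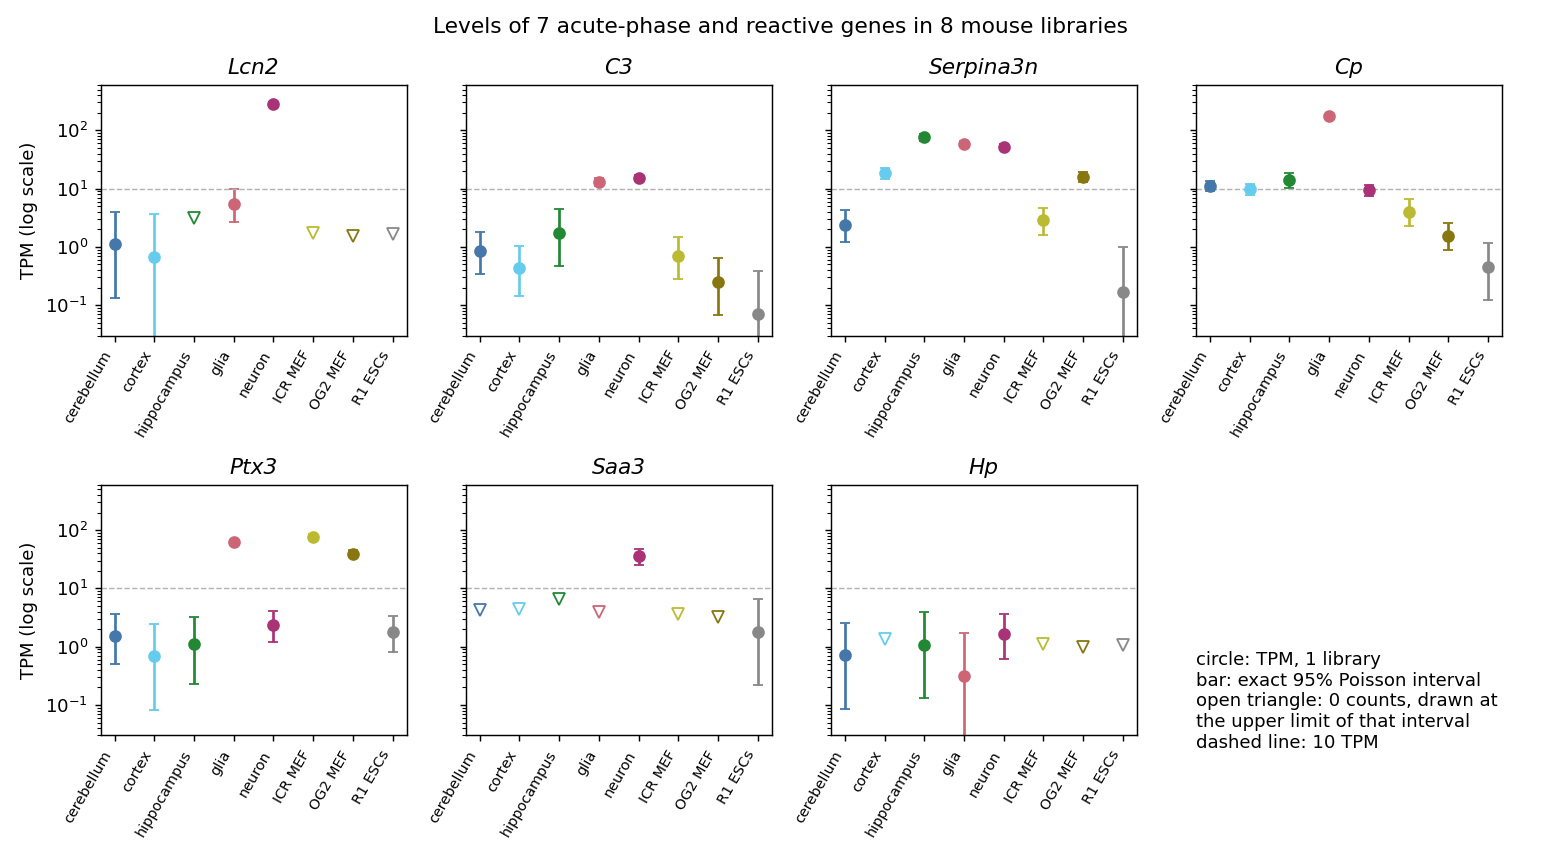
TPM on a log axis of the 7 genes, 1 panel each, in the 8 libraries. Circles are single libraries with exact 95% Poisson intervals (lower ends may run off the axis), and open triangles are libraries at 0 counts drawn at the upper limit of that interval. Lcn2 and Saa3 stand above the 10 TPM line in neuron alone, Cp stands highest in glia, and Ptx3 is high in glia and in both MEF libraries.

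Lcn2 encodes lipocalin 2, a secreted carrier of iron-binding siderophores (ENSMUSG00000026822, mm10 chromosome 2, 32384633 to 32388252, minus strand). It stood at 1.12 TPM in cerebellum, 0.66 in cortex, 0 in hippocampus, 5.40 in glia, 277 in neuron and 0 in ICR MEF, OG2 MEF and R1 ESCs. Neuron alone was high, with 645 counts and an interval of 256 to 299 TPM. Glia came next on 11 counts, and the other libraries held 2 counts or fewer. Neuron held 97.5% of the TPM summed over the 8 libraries, and Lcn2 ranked 597 among the genes of that library. The level in neuron was 51.3-fold that in glia (28.5 to 103) and 247.5-fold that in cerebellum (68.2 to 2048). Glia lay 4.82-fold above cerebellum (1.05 to 44.8), which rests on 11 against 2 counts. Cerebellum and cortex did not differ beyond counting error.

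Saa3 encodes serum amyloid A3, the locally made form of the acute-phase apolipoprotein that liver secretes as SAA1 and SAA2 (ENSMUSG00000040026, chromosome 7, 46711998 to 46715700, minus strand). It stood at 35.2 TPM in neuron (25.2 to 48.0, 40 counts), at 1.79 in R1 ESCs on 2 counts, and at 0 in cerebellum, cortex, hippocampus, glia, ICR MEF and OG2 MEF. As with Lcn2, only the neuron library passed 10 TPM. The level in neuron was at least 11.2-fold that in glia, and at least 10.2-fold, 9.80-fold and 6.49-fold those in cerebellum, cortex and hippocampus. These bounds take neuron at 35.2 TPM and leave out its own counting error. Neuron lay 19.7-fold above R1 ESCs (5.10 to 168). A count of 0 in hippocampus, the shallowest region, still allows up to 5.42 TPM at 3 counts, because the transcript is short. Saa1, Saa2 and Saa4 were at 0 in all 8 libraries, and 1.78% of the 50-base windows of the Saa3 transcript are shared with Saa1.

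Markers of other cells that make Lcn2 and Saa3 were read in the same libraries. Of 10 neutrophil markers none reached 10 TPM in any library, their sum was 5.48 TPM in neuron against 0.72 to 18.3 in the other libraries, and 6 of the 10, S100a8, S100a9, Ngp and Retnlg among them, were at 0 in neuron. Mmp9, a protease also made by other cells, gave most of the sum in neuron at 4.4 TPM on 16 counts, against 2.59 or less elsewhere. Prtn3, proteinase 3 of neutrophil granules, is not on that list and was at 32.0 TPM in neuron on 63 counts, 0 in glia and 2.82 or less elsewhere. Astrocyte markers summed to 424 TPM in neuron against 3168 in glia, and microglia and macrophage markers to 76.0 against 431. Within the latter list Cd68, a lysosomal protein of phagocytes, was at 37.7 TPM in neuron and 51.0 in glia, while Csf1r was at 4.49 and 73.3 and Ctss at 2.44 and 158. Endothelial markers summed to 4.05 TPM and choroid plexus markers to 4.61 TPM in neuron. Their part in the levels of Lcn2 and Saa3 was not tested.

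Pearson's r of log2(TPM + 1) over the 8 libraries was used to name the genes whose pattern was most like that of a member, among 12222 genes. Closest to Lcn2 were Ifit1 (0.981), Anapc11 (0.967), Dynlrb1 (0.965), Oasl2 (0.960) and Fam181a (0.959). Ifit1 stood at 24.0 TPM in neuron, 7.13 in glia and 2.18 to 2.85 elsewhere, and Oasl2 at 67.8, 9.63 and 1.16 to 3.85. Closest to Saa3 were Idnk (0.994), Nop10 (0.986), Cox6b1 (0.982), Lamtor4 (0.982) and Tomm7 (0.978). Nop10 was at 173 TPM in neuron, 81.5 in R1 ESCs and 43.1 to 50.2 elsewhere, the order that the 40 and 2 counts of Saa3 also gave. Both correlations rest on 1 or 2 libraries that stand apart, and the libraries also differ in composition: ribosomal protein genes took 4.67% to 7.49% of TPM in the regions and glia, 17.9% in neuron, 20.0% and 21.0% in the MEF libraries and 47.9% in R1 ESCs.

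C3 encodes complement component 3, on which the classical, lectin and alternative pathways converge (ENSMUSG00000024164, chromosome 17, 57203970 to 57228136, minus strand). It stood at 0.86 TPM in cerebellum, 0.44 in cortex, 1.73 in hippocampus, 12.98 in glia, 15.15 in neuron, 0.71 in ICR MEF, 0.25 in OG2 MEF and 0.07 in R1 ESCs. Glia and neuron formed the high pair, on 182 and 233 counts, and the other libraries held 7 counts or fewer. Neuron and glia did not differ beyond counting error in TPM (1.17-fold, 0.957 to 1.42), while by CPM, which divides counts by the library's total and ignores length, neuron was at 58.5 and glia at 31.0. Glia lay 7.50-fold above hippocampus (2.88 to 27.8) and 18.3-fold above ICR MEF (8.69 to 46.1), and neuron 8.76-fold above hippocampus (3.37 to 32.4). The hippocampus value rests on 4 counts over an effective length of 1457 bases, where RSEM gave 4940 bases in glia, and by CPM glia and neuron lay 28.6-fold and 53.9-fold above hippocampus. Below the high pair no neighbours in the order of levels were apart by counting error. Further along the order, hippocampus lay 6.92-fold above OG2 MEF (1.29 to 37.2), or 1.47-fold by CPM. Hippocampus, cerebellum and ICR MEF were also apart from R1 ESCs, which held 1 count.

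Most other complement genes were lower in neuron than in glia, unlike C3. Of 21 listed genes 18 had a mean of 1 TPM or more, and in neuron against glia 0 were called higher and 14 lower, where 21.8% of all 15686 genes tested were called lower. The median log2 difference of the list was -3.12, against -0.74 over all genes tested. Among them the receptor for C3-derived iC3b, Itgam, was at 0.23 TPM in neuron and 24.6 in glia, and the C3a receptor C3ar1 at 1.48 and 16.2. C1qa, C1qb and C1qc, the recognition subunits of C1, were at 17.7, 23.4 and 16.2 TPM in neuron against 161, 152 and 151 in glia. Against the brain regions 4 genes were called higher in glia, the C1 proteases C1ra (24.8 TPM) and C1s1 (22.1) and the receptors C5ar1 (15.1) and C3ar1, where 5.0% of all genes were. Of the alternative pathway, Cfb was at 1.62 TPM or less in all 8 libraries and Cfd at 0.

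Closest to C3 in pattern were Cpne8 (r = 0.982), Tctex1d2 (0.962), Usp18 (0.933), Dcakd (0.928) and Tubb2b (0.927). Usp18 was at 11.9 TPM in glia, 9.46 in neuron and 1.56 to 3.09 elsewhere, so its high libraries were those of C3. Among the members, the pattern of C3 was most like that of Lcn2 (r = 0.835), although glia held 12.98 TPM of C3 and 5.40 of Lcn2. Both were among the genes whose differences led to the choice of members.

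Serpina3n encodes a secreted serine protease inhibitor related to human alpha-1-antichymotrypsin (ENSMUSG00000021091, chromosome 12, 104406729 to 104414329, plus strand). It stood at 2.42 TPM in cerebellum, 18.4 in cortex, 75.6 in hippocampus, 59.4 in glia, 52.4 in neuron, 2.87 in ICR MEF, 16.1 in OG2 MEF and 0.17 in R1 ESCs. It was the member with the widest spread over the brain regions and the only one at 10 TPM or above in 5 libraries. Hippocampus lay 4.10-fold above cortex (3.16 to 5.36), and cortex 7.62-fold above cerebellum (4.04 to 15.9). Hippocampus also lay 1.27-fold above glia (1.07 to 1.51) in TPM. Glia and neuron did not differ beyond counting error (1.13-fold, 0.965 to 1.33), and neuron became the higher with CPM (77.3 against 53.7) and with TMM factors of the counts or of the TPM. By CPM neuron also stood above hippocampus (61.3). Cortex and OG2 MEF did not differ beyond counting error, nor did ICR MEF and cerebellum.

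OG2 MEF held 5.62-fold more Serpina3n than ICR MEF (3.26 to 10.5), on 99 against 15 counts, and neighbours in the Serpina3 cluster went the other way. Serpina3i was at 71.8 TPM in ICR MEF and 1.08 in OG2 MEF, Serpina3f at 5.04 and 0.17, and Serpina3g at 54.3 and 33.2. Serpina3g was at 6.04 TPM or less in the other libraries and 0 in glia, where Serpina3n stood at 59.4. The MEF libraries thus held mostly other genes of the cluster, and cortex, hippocampus, glia and neuron mostly Serpina3n. Cerebellum was low in both, with Serpina3n at 2.42 TPM on 11 counts and Serpina3g at 2.21 TPM on 2 counts. Of the 50-base windows of the Serpina3n transcript 6.90% are shared with Serpina3e-ps, Serpina3g, Serpina3c or Serpina3f, so reads from those stretches are split between genes by estimate. Of the proteases that inhibitors of this family act on, Elane and Ctsg were at 0 in all libraries and Cma1 at 0.8 TPM or less. Prtn3 passed 10 TPM in neuron alone.

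**Figure D2:**
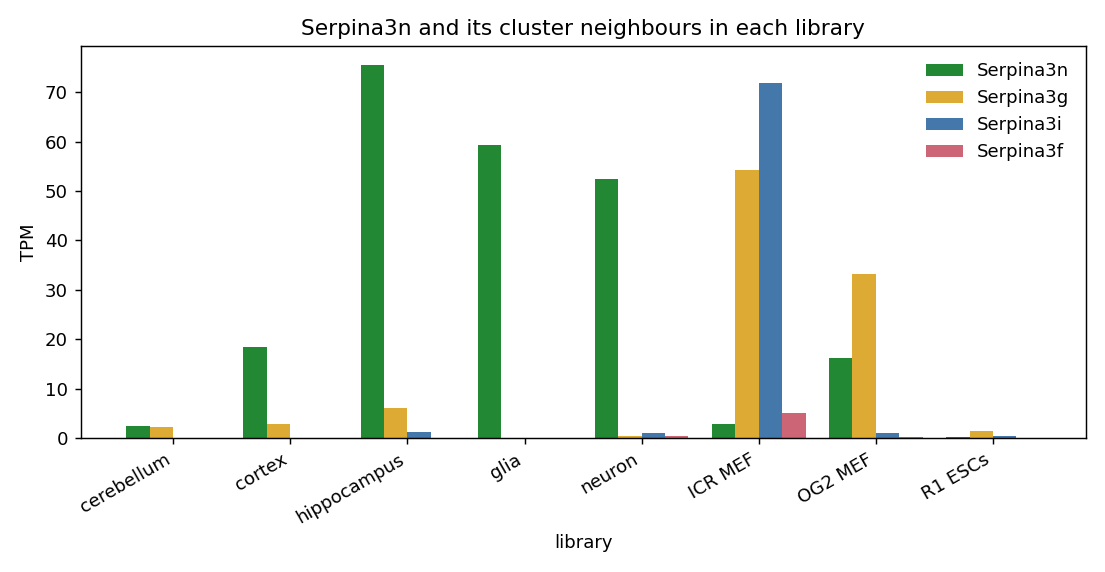
TPM of Serpina3n and of 3 genes of its cluster in each library, as bars from 0. Serpina3n is the tall bar from cortex to neuron, while ICR MEF shows Serpina3i at 71.8 and Serpina3g at 54.3 TPM beside Serpina3n at 2.87.

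Among the genes closest to Serpina3n in pattern were Abhd17c (r = 0.945), Lmo4 (0.928), Lhx2 (0.926) and Wdpcp (0.915). Lhx2, a forebrain transcription factor, was at 0.27 TPM in cerebellum, 49.3 in cortex, 57.5 in hippocampus, 128 in glia, 44.9 in neuron and 4.63 or less in the non-neural libraries. Cerebellum was thus low in Serpina3n and in Lhx2.

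Cp encodes ceruloplasmin, a copper-containing ferroxidase that in brain is made by astrocytes and kept partly as a membrane-anchored form (ENSMUSG00000003617, chromosome 3, 19957054 to 20009145, plus strand). It stood at 11.3 TPM in cerebellum, 9.78 in cortex, 13.9 in hippocampus, 178 in glia, 9.33 in neuron, 4.03 in ICR MEF, 1.57 in OG2 MEF and 0.46 in R1 ESCs. Glia alone was high, with 1677 counts, and Cp ranked 1017 among the genes of that library. The level in glia was 12.9-fold that in hippocampus (9.63 to 17.6), 19.1-fold that in neuron (15.6 to 23.6) and 44.2-fold that in ICR MEF (27.2 to 77.6). The regions and neuron followed within 9.33 to 13.9 TPM, where no neighbours were apart by counting error. From end to end hippocampus lay 1.48-fold above neuron (1.03 to 2.12), while by CPM neuron was the higher (25.6 against 12.7). The difference of neuron from the regions was -0.28 on the log2(TPM + 1) scale and turned to 0.66 with CPM and 0.58 with TMM factors of the TPM. The effective length of Cp, which RSEM sets from the transcripts it credits, ran from 1435 bases in ICR MEF to 3902 in cerebellum. Hps3 on the opposite strand overlaps the end of Cp, and the sources used here do not say whether counting used strand. Hps3 stood at 13.4 TPM in glia and 26.6 in cerebellum, below and above Cp in those libraries.

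Hp encodes haptoglobin, the plasma protein that binds free haemoglobin (ENSMUSG00000031722, chromosome 8, 109575128 to 109579172, minus strand). It stood at 0.71 TPM in cerebellum, 0 in cortex, 1.08 in hippocampus, 0.31 in glia, 1.65 in neuron and 0 in ICR MEF, OG2 MEF and R1 ESCs. The 8 libraries held 11 counts of it in all, 6 of them in neuron, and no library reached 10 TPM, so no fold is given. Hp was the member below a mean of 1 TPM, and the other 6 passed that filter. Hpx, the haem-binding partner hemopexin, was at 0.94 TPM or less in all libraries. Of 21 other acute-phase proteins of liver, 14 to 19 were at 0 in each library and 3 had a mean of 1 TPM or more. A2m, the protease inhibitor alpha-2-macroglobulin, was high with Cp in glia at 253 TPM against 5.10 in neuron and 61.5 in cerebellum. Trf, transferrin, was at 795, 402 and 326 TPM in cerebellum, hippocampus and cortex, but at 28.8 in glia and 36.3 in neuron.

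Of 14 iron and haem genes, the partners of Lcn2, Cp and Hp, 11 were tested between neuron and glia. In neuron 1 was called higher, where 7.41% of all genes were, and 3 lower, where 21.8% were, so both counts lay near the shares over all genes. The higher one was Slc22a17, the receptor for Lcn2, at 419 TPM in neuron and 51.7 in glia, with 343 to 609 in the regions. The lower ones were Bmp6, Lrp2 and Hmox1. Lrp2, megalin, which also takes up Lcn2, was at 25.8 TPM in glia and 1.37 or less elsewhere. Hmox1, the haem-degrading enzyme, was at 237 TPM in glia, 134 and 126 in the MEF libraries and 13.5 in neuron. Of the iron store genes, Fth1 was at 6816 TPM in neuron and 3907 in glia, and Ftl1 at 4079 and 2141, with 6187 and 8852 in the MEF libraries and 534 to 601 in the regions. The iron exporter Slc40a1, which works with ferroxidases, was at 1.63 TPM in glia and 6.33 to 9.65 in the regions, so the library with most Cp had less of it than they did. Heph, the ferroxidase related to Cp, was at 4.71 TPM in glia.

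Closest to Cp in pattern were Ccdc96 (r = 0.972), Cd84 (0.968), Intu (0.962), Arvcf (0.958) and Foxj1 (0.957). Foxj1, the regulator of motile cilia that marks ependymal cells, was at 170 TPM in glia, 2.37 in neuron and 5.34 to 10.2 in the regions. Choroid plexus, another epithelium of the ventricles that makes Cp, was marked by a summed 34.6 TPM in glia and 1255 in cortex. Ttr gave 4.13 and 1183 TPM of these sums, and Folr1 21.2 and 13.7. Folr1 alone was higher in glia than in cortex, and the other markers listed were higher in cortex. The part of choroid plexus and of ependymal cells in the Cp levels was not tested.

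Ptx3 encodes pentraxin 3, the long pentraxin that cells other than hepatocytes secrete in inflammation (ENSMUSG00000027832, chromosome 3, 66219910 to 66225805, plus strand). It stood at 1.54 TPM in cerebellum, 0.68 in cortex, 1.10 in hippocampus, 61.3 in glia, 2.37 in neuron, 76.9 in ICR MEF, 39.5 in OG2 MEF and 1.78 in R1 ESCs. Glia and both MEF libraries were high on 218 to 366 counts, and the other 5 libraries held 12 counts or fewer. ICR MEF lay 1.25-fold above glia (1.07 to 1.47), glia 1.55-fold above OG2 MEF (1.30 to 1.86), and ICR MEF 1.95-fold above OG2 MEF (1.64 to 2.31). The mean difference of glia from the MEF pair, 0.15 on the log2(TPM + 1) scale, changed sign with CPM, with TMM factors and with ribosomal protein genes left out. Glia lay 25.9-fold above neuron (14.6 to 50.6) and 39.8-fold above cerebellum (16.9 to 123). OG2 MEF lay 25.6-fold above cerebellum (10.8 to 79.7) and 22.2-fold above R1 ESCs (11.5 to 49.2). Neuron, R1 ESCs and the regions were not apart from their neighbours by counting error. Ptx3 lies inside the span of Veph1 on the opposite strand, which stood at 5.87 TPM in glia and 0.43 or less elsewhere.

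Fibroblast markers were mixed in glia. Of 10 tested, 2 were called higher than in the regions (Col1a1, Col1a2), where 5.0% of all genes were. Dcn was the 1 called lower, where 6.54% were. Col1a1 was at 59.2 TPM in glia against 2.52 to 5.19 in the regions and 0.67 in neuron. Dcn was at 2.92 TPM in glia against 22.2 to 61.4 in the regions. Col3a1, Pdgfrb and Foxc1 also lay above every region, and Lum, Pdgfra and Slc6a13 below every region. The list summed to 756 TPM in glia and 7778 and 7008 in ICR MEF and OG2 MEF. Much of the sum in neural libraries was Thy1, at 520 TPM in glia and 695 in neuron, a gene that neurons also express. The part of fibroblasts in the Ptx3 level of glia was not tested. Of 10 partners of Ptx3 in the hyaluronan matrix 8 were tested. Cd44, the hyaluronan receptor, was called higher in glia than in the regions (160 against 2.46 to 8.08 TPM) and in the MEF pair than in the regions (157 and 173 TPM). Vcan, the proteoglycan versican, was at 163 and 141 TPM in the MEF libraries but at 8.75 in glia, and Has2, a hyaluronan synthase, at 10.8 and 7.80 against 0.96. Tnfaip6, the hyaluronan-binding protein that Ptx3 works with in matrix assembly, was at 9.07 TPM in glia, 4.91 and 4.81 in the MEF libraries and 7.0 to 11.9 in the regions. The libraries high in Ptx3 thus shared Cd44 but not Vcan or Has2.

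Closest to Ptx3 in pattern were Gdf15 (r = 0.994), Ndc80 (0.985), Gtse1 (0.985), Plk1 (0.984) and Chek2 (0.982), and 107 genes had r at or above 0.95, against 14 or fewer for every other member compared. Gdf15, a secreted stress-response factor, was at 14.0 TPM in glia, 11.01 and 8.43 in the MEF libraries and 0.47 or less elsewhere. Plk1, a mitotic kinase, was at 66.4 TPM in glia, 58.9 and 52.2 in the MEF libraries and 3.70 or less elsewhere.

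The members differed in which library they made up. Summed TPM of the 7 genes was 18.0 in cerebellum, 29.99 in cortex, 93.3 in hippocampus, 318 in glia, 393 in neuron, 84.5 in ICR MEF, 57.4 in OG2 MEF and 4.27 in R1 ESCs. Glia and neuron were the highest, but through different genes: Lcn2 gave 70.5% of the sum in neuron, and Cp gave 56.1% in glia. Serpina3n gave 81.0% in hippocampus and 61.5% in cortex, Cp 63.0% in cerebellum, and Ptx3 91.0% in ICR MEF and 68.8% in OG2 MEF.

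**Figure D3:**
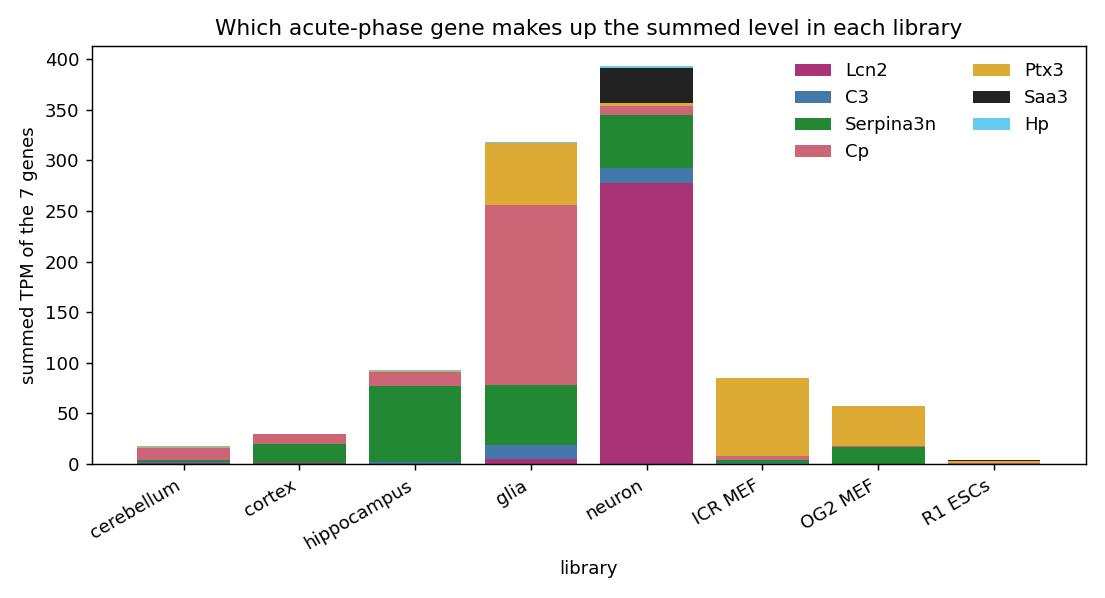
Summed TPM of the 7 genes in each library, as stacked bars from 0 with 1 colour per gene. The bars for glia and neuron reach 318 and 393 TPM, mostly Cp with Ptx3 and Serpina3n in glia and mostly Lcn2 in neuron.

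Between neuron and glia, 2 members were called higher in neuron (Lcn2, Saa3), where 7.41% of all 15686 genes were, and 2 lower (Cp, Ptx3), where 21.8% were. C3 and Serpina3n were not called, and Hp, below a mean of 1 TPM, was not put to the rule. Against the 3 brain regions, glia had 3 members called higher (C3, Cp, Ptx3), with 5.0% of all genes called, and 0 lower, with 6.54%. Neuron had 3 called higher than the regions (Lcn2, C3, Saa3), with 1.28% of all genes, and 0 lower, with 12.5%. The glia and neuron comparisons share the same 3 region libraries. These contrasts led to the choice of members, so nothing is read from their counts against those shares. All 4 calls between neuron and glia held under each other scaling, floor and added value tried, all of them settings on the same counts. By CPM Saa3 in neuron was at 10.04, just above the floor of 10. Neuron held 97.5% of the summed TPM of Lcn2 and 95.2% of that of Saa3. Both genes passed the mean of 1 TPM only through that library. C3 was not called with 5 TPM added, in glia or in neuron against the regions, nor in glia with TMM factors of the TPM.

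Between the MEF pair and the regions, 1 member was called higher, Ptx3, with 4.56% of all genes, and 0 lower, with 11.6%. Glia against the MEF pair had 2 members called higher (C3, Cp), with 6.82% of all genes, and 0 lower, with 1.98%. Without OG2 MEF Serpina3n was called higher in glia as well, and with the floor at 1 TPM or none Lcn2 was. C3 was not called there with 5 TPM added or with TMM factors of the TPM. R1 ESCs against the MEF pair had 0 members called higher, with 2.61% of all genes, and 1 lower, Ptx3, with 25.9%. Serpina3n, at 0.17 TPM in R1 ESCs on 0.94 expected counts, joined it when ICR MEF was left out. ICR MEF against OG2 MEF had 0 members called higher, with 0.242% of all genes, and 1 lower, Serpina3n, with 0.0829%, or 13 genes. Cerebellum against cortex and hippocampus had 0 called higher, with 1.68%, and 1 lower, Serpina3n, with 2.25%. Both Serpina3n calls were lost with 5 TPM added.

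**Figure D4:**
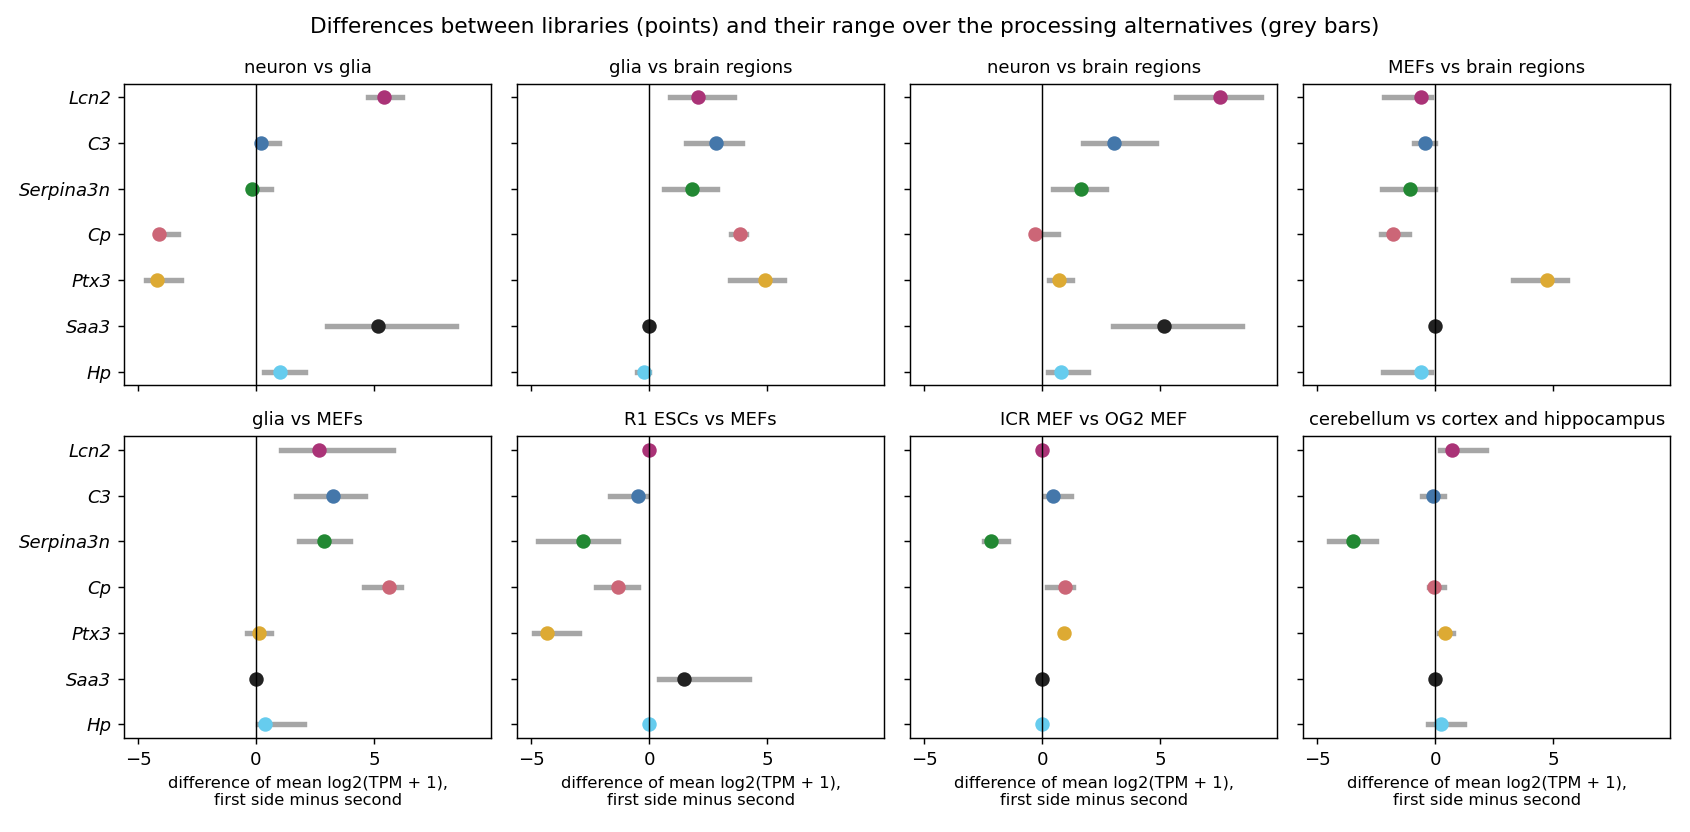
Difference of mean log2(TPM + 1), first side minus second, for each gene in the 8 comparisons, with points for the values as reported and grey bars for the range over the processing alternatives. Bars of Cp and Ptx3 stay left of 0 in neuron against glia and those of Lcn2 and Saa3 right of it, while the bar of Serpina3n crosses 0.

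The differences stand on libraries whose overall level was shifted in TPM. The median log2 difference of all genes with a mean of 10 TPM or more was -0.83 for neuron against glia, -1.07 for neuron against the regions, -0.68 for the MEF pair against the regions, 0.42 for glia against the MEF pair and -1.99 for R1 ESCs against the MEF pair, and with TMM factors of the TPM it was -0.02, -0.16, -0.05, -0.11 and -0.31. Relative to the main medians, Lcn2 (5.44), Saa3 (5.18), Cp (-4.12) and Ptx3 (-4.21) in neuron against glia kept their directions, while C3 (0.21) and Serpina3n (-0.18) both lay above the median of all genes. The share of calls that were higher in neuron than in glia was 25.4% and rose to 48.4% under TMM factors of the TPM and 39.4% under CPM. It went from 9.32% to 53.1% and 31.7% for neuron against the regions, and from 9.14% to 48.3% and 22.0% for R1 ESCs against the MEF pair, where TMM factors of the counts gave 19.5%. With TMM factors of the TPM it rose from 28.2% to 46.8% for the MEF pair against the regions and fell from 77.5% to 58.7% for glia against the MEF pair.

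Other genes of reactive astrocytes were often higher than in the regions both in glia and in the MEF pair, as Ptx3 was. Of 31 listed 29 were tested, and 15 were called higher in glia than in the regions, where 5.0% of all genes were, with a median log2 difference of 2.69 against -0.16. Vim, an intermediate filament of reactive and dividing glia, was at 10414 TPM in glia and 58.2 to 280.1 in the regions, and the surface protein Cd109 at 208 and 0.66 to 3.32. In ICR MEF and OG2 MEF, Vim was at 5814 and 6037 TPM and Cd109 at 103 and 84.1. The MEF pair had 12 of the 29 called higher than the regions, where 4.56% of all genes were, and 2 lower (Gfap, Srgn), where 11.6% were. Gfap was at 2.48 and 1.49 TPM in ICR MEF and OG2 MEF. Glia against the MEF pair had 4 higher and 3 lower, where 6.82% and 1.98% were. In neuron against glia 0 were called higher and 19 lower, where 21.8% of all genes were called lower. Gfap, the astrocyte filament, was at 20.2 TPM in neuron, so the library with most Lcn2 held little of it. Against the regions neuron had 2 called higher, S100a10 (662 TPM) and Timp1 (18.4 TPM), where 1.28% of all genes were, and 4 lower, where 12.5% were. Serpina3n, itself a marker of such cells, was higher in hippocampus (75.6 TPM) than in glia, where Gfap was at 408 and 1492 TPM.

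Signalling genes upstream of acute-phase proteins were called lower in neuron than in glia or were not called. Of 28 listed genes 27 were measured and 23 tested, and in neuron against glia 0 were called higher and 10 lower, where 21.8% of all genes were lower, with a median log2 difference of -2.20 against -0.74 over all genes tested. The receptor subunits Tnfrsf1a, Il6st and Osmr were at 2.43, 4.05 and 0.82 TPM in neuron and 130, 151 and 49.98 in glia. Stat3, the factor downstream of Il6st, was at 21.9 TPM in neuron and 156 in glia, and its feedback inhibitor Socs3 at 4.74 and 25.4. Cebpb, a C/EBP factor, was at 16.6 TPM in neuron, 22.4 in glia and 59.1 and 31.7 in the MEF libraries, and Cebpd was not analysed here. In glia against the regions 5 were called higher (Tnfrsf1a, Socs3, Osmr, Tlr2, Nfkb2), where 5.0% of all genes were. In glia against the MEF pair 0 were called in either direction, where 6.82% of all genes were higher and 1.98% lower. R1 ESCs had 13 called lower than the MEF pair, where 25.9% of all genes were. The cytokines themselves were low in all 8 libraries, with Il6 at 3.04 TPM or less, Il1b at 3.43 or less and Tnf at 1.11 or less. In neuron against the regions 0 were called higher, where 1.28% of all genes were, and 2 lower (Il6st, Nfkb1), where 12.5% were. The median log2 difference there was -1.24 against -1.05 over all genes tested. Socs3 was at 0.52 to 2.57 TPM in the regions, below its level in neuron. The part of these genes in the levels of Lcn2 and Saa3 was not tested.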

How the data were processed

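RNA was measured in 8 mouse libraries, 1 per group. Per the labels' protocols, total RNA was extracted with Trizol and 1 ug went into the Illumina TruSeq RNA kit. Bowtie, RSEM (versions not given) and build mm10 are named in the submitters' processing notes. Expected counts per gene, TPM values and effective lengths were deposited by the authors, per the file headers. The sources used here do not name the annotation release or strandedness. Of 29713 gene identifiers 29202 matched a symbol. Total counts of 2147004 to 5864673 set the precision.

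From these, ranks, folds with exact (Clopper-Pearson) intervals, Poisson intervals, calls and correlations were computed in Python 3.11.15 (numpy 2.4.6, pandas 2.3.3, scipy 1.17.1, matplotlib 3.10.9), and TMM factors in R 4.3.3 with edgeR 4.0.16, which ran no test. The calling rule (10 TPM, 4-fold on TPM + 1) ran on all genes, and shares are of the 15686 with a mean of at least 1 TPM. It was also run on simulated counts with Poisson error only and shared effective lengths, which cannot show how it fares with spread between replicates. Positions, overlaps and 50-base windows come from GENCODE release M21 (mm10), promoters from RefSeq.

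Named are the 7 members, the 5 genes most alike to each member that reached 10 TPM, called genes of 7 pathway lists and 11 marker lists (up to 5 per list and comparison), the highest and lowest markers, and genes whose role bears on a member, these last chosen after their values were seen. Some genes that met this rule are not reported here. Members and lists were chosen with earlier results of these data known. Alternatives were 0.1 or 5 TPM added, a floor of 1 TPM or none, TMM factors of counts or TPM, CPM (counts scaled to the library total), TPM without 97 ribosomal protein genes, and leaving out each library of a side with several.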

Additional observations from a re-analysis of the deposited data

How the results depend on the processing

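Counts of calls per comparison, members' counts included, stayed within 1.5 times in 290 of 324 values under the alternatives, and the counts of members in 157 of 162. The 157 include counts that stayed at 0 and changes from 3 members to 2 or from 2 to 3. Among these are the loss of C3 in glia and in neuron against the regions. The gain of Lcn2 or Serpina3n in glia against the MEF pair is also among them. No called member changed direction. With 5 TPM added, members called fell from 2 to 1 for glia against the MEF pair (C3 lost), and from 1 to 0 for ICR MEF against OG2 MEF and for cerebellum (Serpina3n lost). The same setting gave 2232 genes lower in neuron than glia (3412 as reported), 518 higher in glia than the regions (784), 907 lower in neuron than the regions (1956), 618 higher and 203 lower in glia than the MEF pair (1070 and 311), 2485 lower in R1 ESCs than the MEF pair (4064), 22 higher and 8 lower in ICR MEF than OG2 MEF (38 and 13), and 152 higher and 214 lower in cerebellum (264 and 353). TMM factors of the TPM gave 1 member higher in glia than the MEF pair, 1920 genes higher and 2050 lower in neuron than glia (1163 and 3412), 689 and 608 in neuron against the regions (201 and 1956), 1211 lower in the MEF pair than the regions (1824), 651 higher in glia than the MEF pair, and 1605 higher and 1721 lower in R1 ESCs (409 and 4064). CPM gave 482 higher and 1039 lower in neuron than the regions, 854 higher in R1 ESCs and 6 lower in ICR MEF. R1 ESCs had 752 higher with TMM factors of the counts and 705 without ribosomal protein genes. A floor of 1 TPM, or none, gave 82 higher and 38 lower in ICR MEF than OG2 MEF. Leaving out a library gave 1 to 2 members lower in R1 ESCs (2 without ICR MEF) and 497 to 564 genes lower in cerebellum (564 without hippocampus). The cause was not tested, except that 5 TPM added lowers every ratio by construction. No paired analysis was possible because each group was 1 library and the labels carry no replicate numbers. Depth limits Lcn2, C3, Saa3 and Hp outside their high libraries, where 3 counts were worth 0.188 to 5.42 TPM.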

Other observations

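Over the 8 libraries, Pearson's r of log2(TPM + 1) between members was highest for Lcn2 with Saa3 (0.879) and Lcn2 with C3 (0.835), followed by C3 with Cp (0.723). Ptx3 had r between -0.414 (with Hp) and 0.195 (with Cp), the weakest set among the 7 genes. Lcn2 was at 0 in 4 libraries and Saa3 in 6. Neuron held 97.5% and 95.2% of their summed TPM, so their r rests largely on that library. Lcn2 and C3 were among the genes whose differences in these data led to the choice of members, so their r is a description only. All these values describe 8 libraries that also differ in depth and composition, and no p is given.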
